A study of Mus musculus with 9 samples.

Results

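The mGluR6 signalling complex of ON bipolar cells was followed as 9 genes of the 22337 in the table, chosen by symbol: Grm6, Trpm1, Nyx, Lrit3, Gpr179, Gnao1, Rgs7, Rgs11 and Pcp2. All 9 were found once each and all 9 passed the filter on low counts in every comparison. RNA was measured by mRNA sequencing in whole retinas collected at postnatal day 28 (P28), with 3 libraries in each of 3 groups. The WT group was C57BL/6J mice that received no treatment. The NS group was rd10 mice injected with normal saline, and the MSC-EVs group was rd10 mice injected with extracellular vesicles of human umbilical cord mesenchymal stem cells, 1 μl per eye into the vitreous at P14 and P21 in both cases. The rd10 mouse carries a mutation of Pde6b, the rod phosphodiesterase, in all its cells, and its rods die in the weeks after eye opening. WT mice came from another supplier than rd10 mice and were not injected, so strain source, genotype and injection cannot be told apart in any comparison with WT. Nothing in the labels says whether retinas were pooled, or that a replicate was a separate animal, so p-values measure the spread between these libraries.

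ON bipolar cells read the glutamate that photoreceptors release in the dark. Glutamate binds the receptor mGluR6, which activates the G protein Go, and the cation channel TRPM1 closes. Light lowers glutamate, TRPM1 opens and the cell depolarises, which is the source of the b-wave of the electroretinogram. Nyctalopin and LRIT3 hold the complex at the dendritic tip, GPR179 anchors the RGS proteins that switch Go off, and human mutations in several of these genes cause congenital stationary night blindness with a missing b-wave.

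The members lie at separate places in the mouse genome (GRCm38, GENCODE M21; the build the authors used is not given in the sources used here). All 9 are protein coding. Grm6 spans chr11:50850685-50866208 on the plus strand, Trpm1 chr7:64153835-64269775 on the plus strand, Nyx chrX:13466110-13489313 on the plus strand and Gpr179 chr11:97332109-97352077 on the minus strand. Lrit3 spans chr3:129787881-129804030 on the minus strand, Gnao1 chr8:93809966-93969388 on the plus strand, Rgs7 chr1:175059087-175492500 on the minus strand, Rgs11 chr17:26202951-26211324 on the plus strand and Pcp2 chr8:3623371-3625545 on the minus strand. Grm6 and Gpr179 share chromosome 11 and Gnao1 and Pcp2 share chromosome 8, in each case at distant places. Grm6 shares 11% of its annotated exonic bases with the antisense gene Gm12660, which was not analysed here, and Rgs11 shares 3.28% with Arhgdig on the other strand. The 250 bases before the annotated start are shown for 4 members: Grm6, Trpm1 and Gpr179, which rose from WT to NS-treated rd10, and Lrit3, which fell. They were read from RefSeq (GRCm38.p6) at chr11:50850435-50850684 (plus strand), chr7:64153585-64153834 (plus strand, the first of the Trpm1 starts), chr11:97352357-97352606 (minus strand) and chr3:129804137-129804386 (minus strand). The RefSeq starts of Gpr179 and Lrit3 lie upstream of the GENCODE starts, so their windows do not adjoin the gene positions given above. Each window is written from 5′ to 3′ along its gene, and capitals mark a match to the motif of the retinal homeodomain factors OTX2 and CRX.
Grm6: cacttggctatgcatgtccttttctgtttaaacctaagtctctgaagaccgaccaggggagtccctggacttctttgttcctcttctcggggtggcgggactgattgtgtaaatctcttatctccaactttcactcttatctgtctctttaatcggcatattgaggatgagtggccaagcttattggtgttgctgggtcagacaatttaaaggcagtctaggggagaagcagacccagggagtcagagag
Trpm1: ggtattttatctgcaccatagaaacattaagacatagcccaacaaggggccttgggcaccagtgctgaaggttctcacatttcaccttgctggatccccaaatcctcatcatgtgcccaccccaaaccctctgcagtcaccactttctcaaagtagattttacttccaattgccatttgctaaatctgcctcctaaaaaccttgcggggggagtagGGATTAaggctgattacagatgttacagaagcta
Gpr179: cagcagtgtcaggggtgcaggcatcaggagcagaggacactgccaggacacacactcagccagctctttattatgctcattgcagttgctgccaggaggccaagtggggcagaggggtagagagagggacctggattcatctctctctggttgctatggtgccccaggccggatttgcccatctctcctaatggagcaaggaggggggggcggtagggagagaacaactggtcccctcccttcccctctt
Lrit3: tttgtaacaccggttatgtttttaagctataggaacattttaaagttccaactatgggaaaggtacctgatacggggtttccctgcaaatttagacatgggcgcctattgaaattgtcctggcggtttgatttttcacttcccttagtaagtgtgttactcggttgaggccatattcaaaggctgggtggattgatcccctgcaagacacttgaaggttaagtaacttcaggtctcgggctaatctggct
The motif marked was TAATCC, or GGATTA on the other strand, which occurred in 6.25% of 32851 mouse promoter windows of the same length. Among the starts of the 8 members with an entry (all but Rgs11) it was found before a single one, that of Trpm1, where it begins 34 bases before the start. The motif TAATTA of VSX and LHX homeodomain factors was searched as well and occurred in 4.84% of the windows. Among the members it was found before a single start, 1 of the 4 of Pcp2. A match is a match of letters and was not tested as a binding site.

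Libraries held between 19491717 and 62532343 estimated counts, and MSC-EVs replicate 3 was the deepest. The members were counted well at these depths, from 475 counts for Nyx to 38190 for Gnao1 in a single library. MSC-EVs replicates 1 and 2 held 4379 and 4421 summed counts of the Y-linked genes Kdm5d, Uty, Ddx3y and Eif2s3y, against 7 to 23 in the other 7 libraries, MSC-EVs replicate 3 included. The labels do not give the sex of the animals. In comparisons with the MSC-EVs group a difference in sex cannot be fully told apart from treatment. The retinal source of the libraries was visible in their bipolar cell markers: all 10 genes of the list were detected, and their summed level was 1223 to 1257 CPM (counts scaled to a common library size, with TMM factors) in WT, 1222 to 1385 in NS-treated and 1185 to 1387 in MSC-EVs-treated rd10. The summed level of 14 rod markers was 83498 to 89122 CPM in WT, 16910 to 24328 in NS-treated and 17641 to 24511 in MSC-EVs-treated rd10. In a whole-retina library, fewer cells of a type and less RNA per cell cannot be told apart.

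Levels between genes were compared per length, in the FPKM values (fragments scaled to transcript length and to library depth) that the authors deposited. In WT retina, Pcp2 stood at 152 ± 2.41 FPKM (SD, n = 3) and Gnao1, the alpha subunit of Go, at 139 ± 4.76. Trpm1 followed at 46.2 ± 3.16, Rgs7 at 29.8 ± 5.19, Grm6 at 26.1 ± 1.91, Lrit3 at 22.5 ± 2.40, Gpr179 at 18.3 ± 0.486, Rgs11 at 13.4 ± 1.21 and Nyx at 5.14 ± 0.802. In whole retina the mRNA of the G protein subunit was thus more abundant per length than that of the receptor, and nyctalopin mRNA was the scarcest member in WT. Which cells carried the RNA of each member was not resolved, so this order need not hold within ON bipolar cells. Rgs7 and Grm6 overlapped between libraries, and the other neighbours in this order did not. In NS-treated rd10, Gnao1 was first at 198 ± 12.4 FPKM, before Pcp2 at 166 ± 16.1, and Lrit3 at 14.0 ± 2.29 lay below Rgs11 at 17.7 ± 2.69, although the libraries of Lrit3 and Rgs11 overlapped.

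The comparison of WT with NS-treated rd10 asks how the complex stood in a retina that had lost most rod RNA. Of the 9 genes, 5 rose (Grm6, Trpm1, Gpr179, Gnao1 and Rgs7) and 1 fell (Lrit3). Nyx, Rgs11 and Pcp2 did not pass the test. All rises were small, between 1.23-fold and 1.33-fold, and Lrit3 stood at 0.552 of its WT level. The test was edgeR's quasi-likelihood test over 14644 genes with Benjamini-Hochberg adjustment, and a gene is said to have risen or fallen where its adjusted p was under 0.05. Over all genes tested, 31.2% were higher and 30.1% lower by this rule. No member also reached an absolute log2 fold change of 1, which 12.7% of all genes did. For 6 members no NS library fell within the WT range or the reverse, as was so for 66.9% of all genes. The median log2 fold change of the members was 0.30, beside 0.01 over all genes.

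**Figure D1:**
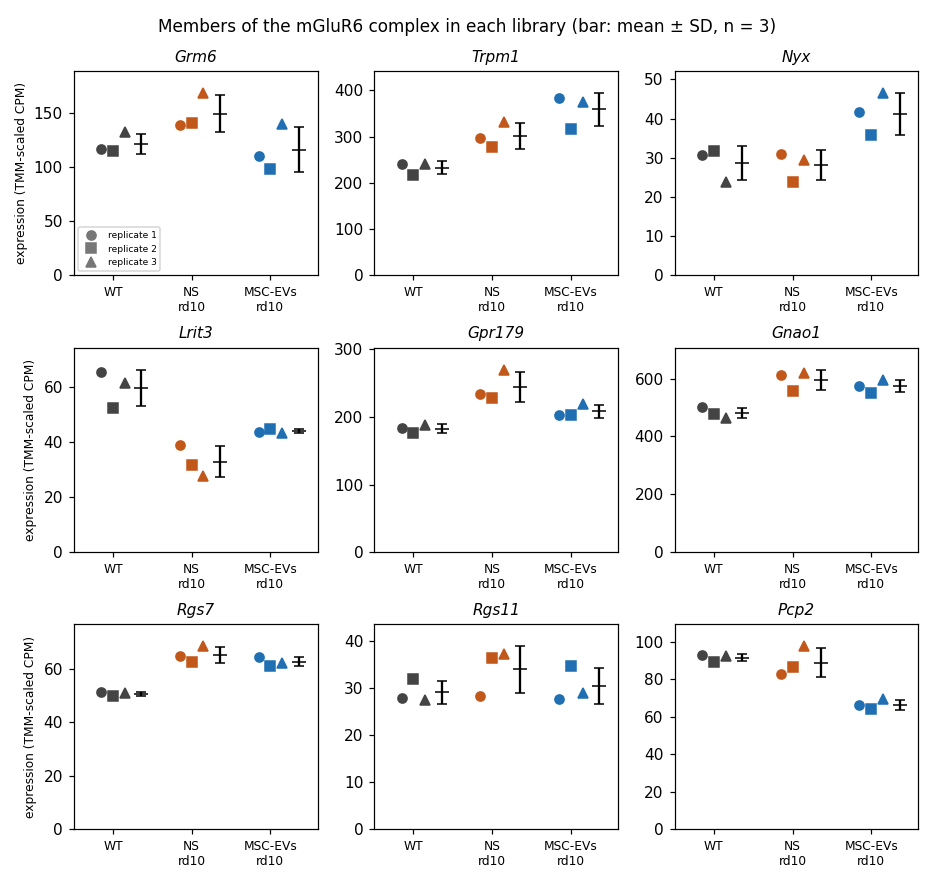
Expression of the 9 members in each of the 9 libraries, in TMM-scaled CPM from 0 (y axis), by group (x axis), with symbols for the replicates and a bar for the mean ± SD (n = 3). Lrit3 lies between 27.8 and 39.0 CPM in NS-treated rd10, below all WT libraries, and Pcp2 lies between 63.9 and 69.2 in MSC-EVs-treated rd10, below all others.

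The receptor and its channel both rose. Grm6 was measured at 117, 115 and 132 CPM in WT replicates 1 to 3 and at 138, 140.2 and 168 in NS replicates 1 to 3. The groups did not overlap, by a margin of a few CPM between the highest WT and the lowest NS library. Its log2 fold change was 0.30 ± 0.079 (SE, adjusted p = 0.00671), and 0.20 without NS replicate 3, the highest library. In a fit of all 9 libraries the value was 0.30 and the call was lost (adjusted p = 0.0697). Trpm1 was measured at 241, 217 and 241 CPM in WT and at 297, 277 and 332 in NS-treated rd10. Every NS library was above every WT library, with a log2 fold change of 0.37 ± 0.070 (adjusted p = 0.000589).

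Lrit3 fell and its partner nyctalopin did not change by the test. LRIT3 is a leucine-rich repeat protein of the synapse that is made at least partly by photoreceptors and is needed for nyctalopin and TRPM1 at the dendritic tip. Lrit3 stood at 65.3, 52.3 and 61.4 CPM in WT and at 39.0, 31.7 and 27.8 in NS-treated rd10, with a wide gap between the groups. Its log2 fold change was -0.86 ± 0.127 (adjusted p = 0.00028), the one fall among the members. Nyx stood at 30.8, 31.7 and 23.8 CPM in WT and at 31.0, 23.9 and 29.4 in NS-treated rd10. The groups overlapped fully, and the log2 fold change of -0.03 had a 95% interval from -0.32 to 0.25 (adjusted p = 0.829).

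The genes that shape the Go signal rose in part. Gpr179 stood at 184, 176 and 188 CPM in WT and at 234, 228 and 270.2 in NS-treated rd10, a log2 fold change of 0.41 ± 0.065 (adjusted p = 0.00016) and the largest rise of a member on the count scale. Gnao1 stood at 501, 476 and 465 CPM in WT and at 612, 556 and 620.4 in NS-treated rd10. Neither gene overlapped between the groups, and the log2 fold change of Gnao1 was 0.31 ± 0.061 (adjusted p = 0.00089). Rgs7 and Rgs11 encode the GTPase-activating proteins that end the Go signal. Rgs7 stood at 51.1, 49.6 and 50.9 CPM in WT and at 64.6, 62.6 and 68.3 in NS-treated rd10, with no overlap and a log2 fold change of 0.36 ± 0.059 (adjusted p = 0.000197). Rgs11 stood at 27.95, 31.9 and 27.5 CPM in WT and at 28.4, 36.4 and 37.3 in NS-treated rd10. Its groups overlapped through NS replicate 1, and the log2 fold change of 0.22 ± 0.105 did not pass (adjusted p = 0.0933). Without that library it was 0.33 with an adjusted p of 0.00604. Pcp2, a GoLoco protein that binds Go in rod bipolar cells, stood at 92.8, 89.4 and 92.4 CPM in WT and at 82.7, 86.4 and 97.5 in NS-treated rd10. NS replicate 3 was above all WT libraries and the other NS libraries were below them, and the log2 fold change of -0.05 had a 95% interval from -0.19 to 0.09 (adjusted p = 0.539).

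The rises depended on what the libraries were scaled to. TMM scaling sets the bulk of genes as unchanged, and 14 of 14 rod markers were lower in NS-treated rd10 (median log2 fold change -1.74). Markers of other inner retinal neurons were higher on the same scale: 8 of 10 amacrine, 5 of 10 ganglion and 4 of 5 horizontal cell markers, with none lower. So were 7 of 8 Müller glia, 8 of 8 microglia, 4 of 4 endothelium and 2 of 6 pigment epithelium markers, while cone markers divided, with 2 of 8 higher and 3 lower, and 0 of 5 lens markers passed (0 had an unadjusted p under 0.05 in edgeR, and DESeq2 called 0). When the libraries were scaled to those amacrine, ganglion and horizontal cell genes instead, no member was higher and 3 were lower, where 61.7% of all genes were called in either direction. These were Lrit3 (-1.16), Pcp2 (-0.35, adjusted p = 0.00592) and Nyx (-0.34, adjusted p = 0.0182). On that scale the log2 fold change was -0.01 for Grm6, 0.07 for Trpm1, 0.11 for Gpr179, 0.01 for Gnao1 and 0.06 for Rgs7, and Rgs11 turned to -0.07. The median of all genes moved to -0.29 and that of the members to -0.01. The fall of Lrit3 passed the test under both scalings. The part of the change in cell makeup in the TMM values was not tested.

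**Figure D2:**
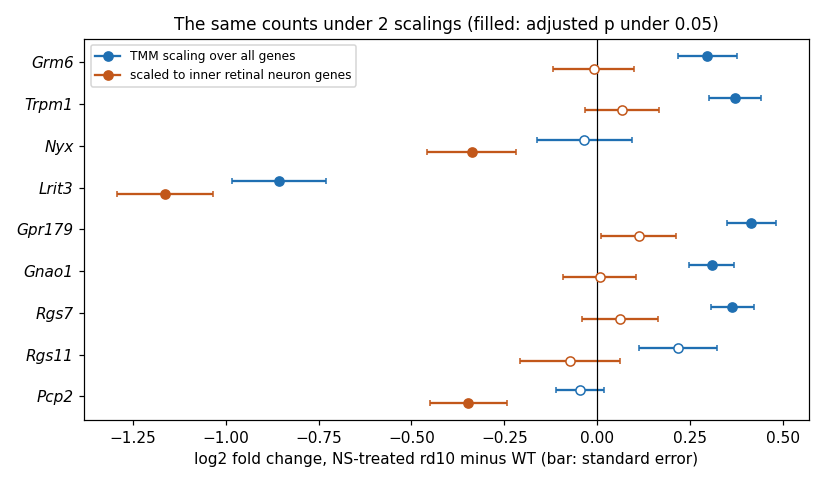
Log2 fold change of each member from WT to NS-treated rd10 (x axis, bars for the standard error) with TMM scaling over all genes and with scaling to amacrine, ganglion and horizontal cell genes, filled where the adjusted p was under 0.05. The 5 rises of the TMM scale sit between -0.01 and 0.11 on the other scale, while Lrit3 is lower on both.

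Trpm1 and Rgs7 differed between the count and the FPKM scale. The length that count and FPKM together imply was constant (highest over lowest library 1.00) for Grm6, Nyx, Gpr179, Lrit3 and Rgs11. For Trpm1 it was 4807, 4698 and 4493 bases in WT, 3963, 3377 and 3925 in NS-treated rd10 and 4521, 3979 and 4847 in MSC-EVs-treated rd10. All NS libraries thus lay below all WT libraries and, by 3963 against 3979 bases at the nearest, below all MSC-EVs libraries. For Rgs7 the implied length was 1624, 1308 and 1869 bases in WT, against 1946, 2070.3 and 1924 in NS-treated rd10. For Gnao1 the NS libraries were also the lowest, at 3121 to 3171 bases against 3183 to 3220 in the other groups. Highest over lowest library was 1.44 for Trpm1, 1.58 for Rgs7 and 1.03 for Gnao1, beside a median of 1.04 over 11856 expressed genes. The spread of Gnao1 was thus below that of a typical gene. For how many of all genes the implied lengths separate by group was not counted. Trpm1 has 23 annotated transcripts, with coding ones of 123 to 5711 bases, and Rgs7 has 8. The implied length moves where a gene's reads are assigned to transcripts of other lengths. The ratio of NS to WT means of Trpm1 was 1.296 in CPM and 1.82 in FPKM, and that of Rgs7 was 1.29 in CPM and 1.16 in FPKM. For Grm6, whose length was constant, the ratios were 1.23 and 1.39, the difference that the scaling of FPKM alone gives. With limma on log2(FPKM + 1), the log2 fold change was 0.85 for Trpm1 and 0.21 for Rgs7, where the call was lost (adjusted p = 0.129). Whether transcript use itself differed was not tested, since transcript-level values were not used here.

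**Figure D3:**
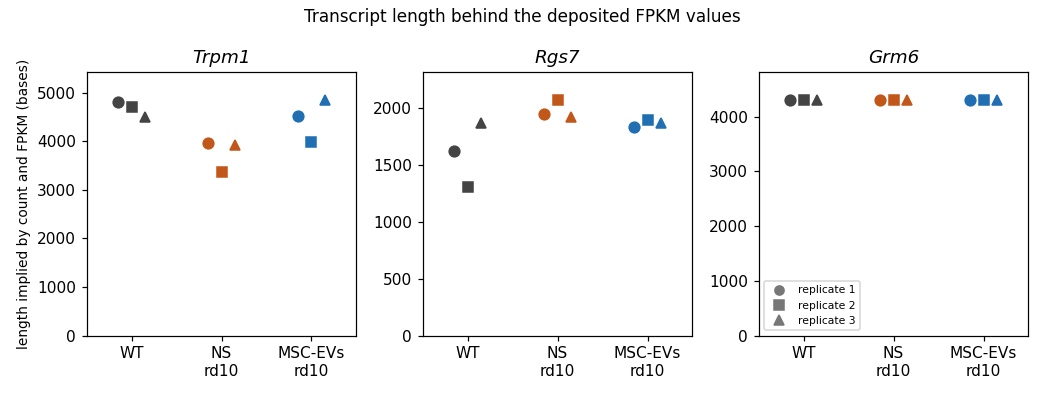
Length in bases implied by the deposited count and FPKM (y axis, from 0) in each library for Trpm1, Rgs7 and Grm6, by group, with symbols for the replicates. Trpm1 lies at 3377 to 3963 bases in NS-treated rd10 and at 4493 to 4807 in WT, while Grm6 is level.

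The comparison of NS-treated with MSC-EVs-treated rd10 asks whether the vesicles moved the complex. Of the 9 members, 1 was lower with MSC-EVs, Pcp2, and none was higher (edgeR, Benjamini-Hochberg over 14765 genes). By the same rule 0.914% of all genes were higher and 0.251% lower. No member also reached an absolute log2 fold change of 1, which 0.061% of all genes did. Without the adjustment, 6 members had a p under 0.05, as had 2980 of all genes, and 4 (Nyx, Lrit3, Gpr179 and Pcp2) had groups that did not overlap, against 26.3% of all genes. DESeq2's Wald test called 3 members, with Nyx and Lrit3 higher and Pcp2 lower, and 6.3% of all genes in either direction. The median log2 fold change of the members was -0.05, beside -0.002 over all genes.

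Pcp2 stood at 66.0, 63.9 and 69.2 CPM with MSC-EVs, below the lowest NS library at 82.7. Its log2 fold change was -0.41 ± 0.079 (adjusted p = 0.0451), a level of 0.751 of NS. The value held its sign in all 16 alternatives, between -0.46 and -0.32, and the call was kept in 9. It was lost without NS replicate 2 (adjusted p = 0.12), NS replicate 3 (0.20), MSC-EVs replicate 1 (0.195) or MSC-EVs replicate 3 (0.0526). It was also lost with scaling to inner retinal genes (-0.32, adjusted p = 0.132) and with the summed Y-linked level as a covariate (-0.35, adjusted p = 0.161). That level was high in MSC-EVs replicates 1 and 2 only, so the group difference in the covariate fit rests largely on MSC-EVs replicate 3. Without MSC-EVs replicates 1 and 2, replicate 3 stood alone for its group and the value was again -0.35. Pcp2 shares 51.5% of its annotated exonic bases with Pet100, a gene on the other strand, and whether counting used strand is not given in the sources used here. Pet100 was at 3.58 to 7.61 CPM, with a log2 fold change of -0.38 (adjusted p = 0.451).

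The synaptic organisers Nyx and Lrit3 were measured at higher levels with MSC-EVs without passing the adjusted test. Nyx stood at 41.6, 35.7 and 46.4 CPM, above the NS range of 23.9 to 31.0, with a log2 fold change of 0.56 ± 0.126 (adjusted p = 0.0657). It passed in 6 of 16 alternatives, among them the DESeq2 Wald test (adjusted p = 0.00291), the scaling to inner retinal genes (0.65, adjusted p = 0.0268) and the fit without MSC-EVs replicate 2 (0.65, adjusted p = 0.0174). The 6 include the fit without both libraries with Y-linked counts (0.73). There MSC-EVs replicate 3 stood alone, so the spread within its group was not measured. Lrit3 stood at 43.7, 44.7 and 43.4 CPM, above the NS range of 27.8 to 39.0, with a log2 fold change of 0.42 ± 0.115 (adjusted p = 0.093). It passed in 2 of 16, the DESeq2 Wald test (adjusted p = 0.0239) and the fit without NS replicate 1 (0.57, adjusted p = 0.0434). Neither Nyx nor Lrit3 was called with the summed Y-linked level as a covariate. Nyx lies on the X chromosome, and for its values too a difference in sex cannot be fully told apart from treatment.

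For the remaining members no difference passed in the main fit. Grm6 stood at 110.3 and 98.3 CPM in MSC-EVs replicates 1 and 2, the libraries with Y-linked counts, and at 139 in replicate 3, which lies in the NS range. Its log2 fold change was -0.35 with a 95% interval from -0.68 to -0.02 (adjusted p = 0.219). Over 16 alternatives it ranged from -0.51 to -0.084, and it was called in 1, with the replicate number as a block. It was -0.086 without both libraries that held Y-linked counts, where MSC-EVs replicate 3 stood alone for its group. With the Y-linked level as a covariate it was -0.084. The group difference in that fit rests largely on the same library, so these values are not independent. Trpm1 stood at 384, 318 and 375 CPM with MSC-EVs and overlapped with NS through MSC-EVs replicate 2, with a log2 fold change of 0.26 and an interval from 0.05 to 0.46 (adjusted p = 0.165). In FPKM its ratio of MSC-EVs to NS means was 0.992, where CPM gave 1.19. Gpr179 stood at 203, 203 and 219 CPM, below all NS libraries, with a log2 fold change of -0.22 (interval -0.40 to -0.05, adjusted p = 0.157). Gnao1 (576, 552 and 594 CPM) and Rgs7 (64.4, 60.9 and 62.3 CPM) both had a log2 fold change of -0.05 with intervals from -0.20 to 0.10. The signs of both turned when the libraries were scaled to inner retinal genes, to 0.04 in each case. Rgs11 stood at 27.8, 34.8 and 28.9 CPM, with a log2 fold change of -0.15 and an interval from -0.44 to 0.13.

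**Figure D4:**
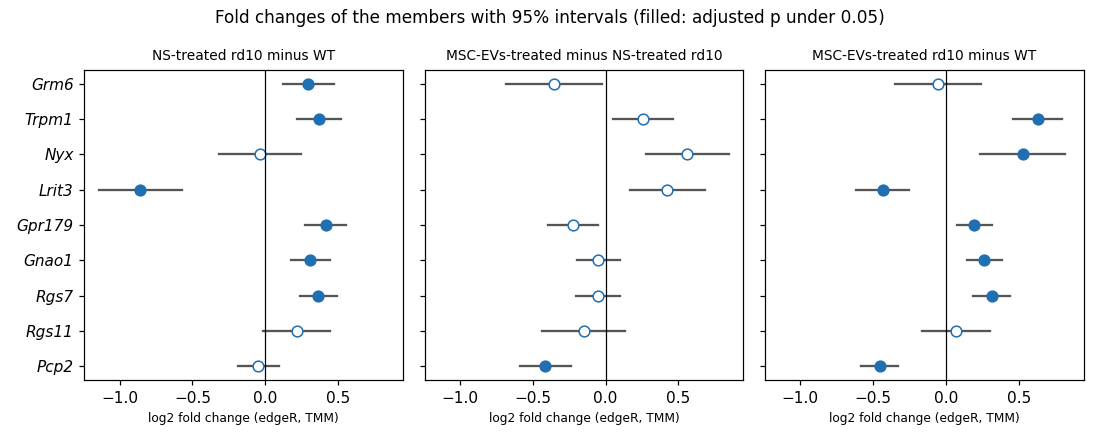
Log2 fold change (x axis) of each member in the 3 comparisons, with 95% intervals and filled points where the adjusted p was under 0.05. With MSC-EVs against NS a single point is filled, Pcp2 at -0.41, and the interval of Grm6 reaches from -0.68 to -0.02.

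The comparison of WT with MSC-EVs-treated rd10 shares its libraries with the other comparisons, so its values are not independent of them. Of the 9 members, 5 were higher with MSC-EVs than in WT (Trpm1, Nyx, Gpr179, Gnao1 and Rgs7) and 2 were lower (Lrit3 and Pcp2), while Grm6 and Rgs11 did not pass. Over all 14623 genes tested 28.3% were higher and 27.2% lower. No member reached an absolute log2 fold change of 1 as well, which 12.2% of all genes did, and the groups did not overlap for 7 members, against 65.2% of all genes. The median log2 fold change of the members was 0.20, beside -0.004 over all genes. Trpm1 was the highest at 0.63 ± 0.076 (edgeR, adjusted p = 9.97e-05), before Nyx at 0.53 ± 0.129 (adjusted p = 0.0075). Rgs7 (0.31), Gnao1 (0.26) and Gpr179 (0.20) were above WT by less, and Gpr179 lost its call without WT replicate 2 (adjusted p = 0.0721). Lrit3 was below WT by -0.44 ± 0.083 (adjusted p = 0.00147) and Pcp2 by -0.46 ± 0.056 (adjusted p = 0.000105). Grm6 was at -0.05 (interval -0.35 to 0.24). Its value turned with the libraries used. Without MSC-EVs replicate 3 it was -0.21 (adjusted p = 0.0275). Without the libraries that held Y-linked counts it was 0.21, with MSC-EVs replicate 3 alone in its group. Scaled to inner retinal genes, 2 members were higher and 3 lower, Grm6 among the latter (-0.28, adjusted p = 0.0448). On that scale 57.8% of all genes were called in either direction and their median was -0.22.

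Around the complex, the genes of its transduction partners divided. Of 7 partners, 2 rose and 3 fell from WT to NS-treated rd10, with a median log2 fold change of -0.10. Over all genes tested 31.2% were higher and 30.1% lower. Gnb3, the beta subunit of Go in ON bipolar cells and of cone transducin, rose by 0.90, from 254 to 276 CPM in WT to 428 to 591 in NS-treated rd10. Rgs7bp, a membrane anchor of RGS proteins, rose by 0.40. Rgs9bp, the anchor best known from the rod outer segment, fell by 2.04 on the log2 scale, from 1297 to 1356 CPM to 279 to 375. Gnb5, the obligate partner of RGS7, RGS9 and RGS11, fell by 0.77. Prkca, the protein kinase C of rod bipolar cells, fell by 0.23, and its substrate Tpbg (-0.10) and the gamma subunit Gng13 (0.07) did not pass. Gnb5 and Rgs9bp also serve photoreceptors. Scaled to inner retinal genes, Gnb3 stayed higher (0.61), Rgs7bp lost its call (0.09) and Tpbg was called lower (-0.41). With MSC-EVs against NS, 1 of the 7 partners fell, Gng13 by 0.43 (adjusted p = 0.0489), from 51.3 to 62.4 CPM to 40.7 to 42.9, and its call was lost with DESeq2 size factors and with scaling to inner retinal genes.

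On the photoreceptor side of the synapse most partners fell. Of 10 genes, 8 fell and 2 rose from WT to NS-treated rd10, where 30.1% of all genes were lower and 31.2% higher. The median log2 fold change of the 10 genes was -1.06. Those lower included Elfn1 (-1.19), the rod adhesion protein that binds mGluR6, Egflam (-1.11), which encodes pikachurin, the calcium channel subunits Cacna1f (-1.08), Cacnb2 (-1.04) and Cacna2d4 (-0.78), their regulator Cabp4 (-1.73), the vesicular glutamate transporter Slc17a7 (-1.21) and Lrit1 (-0.79). Dag1 (0.47), which encodes dystroglycan, and Elfn2 (0.19) were higher, and scaled to inner retinal genes neither passed and Elfn2 turned to -0.11. The 8 falls were called under that scaling as well. With MSC-EVs against NS, 1 of the 10 rose, Lrit1 by 0.40 (adjusted p = 0.0447), from 291 to 341 CPM to 395 to 430. Without NS replicate 3 or MSC-EVs replicate 1, no gene was called in the rd10 comparison, so the calls of Lrit1 and Gng13 do not stand there (1991 and 2052 of all genes had an unadjusted p under 0.05). In that comparison edgeR called none of the 14 rod markers and their median was 0.02 (2 had an unadjusted p under 0.05, and DESeq2 called 0). edgeR also called none of 8 cone markers, but their median was -0.33, 6 had an unadjusted p under 0.05, and DESeq2 called 4 lower. Their summed level was 1117 to 1218 CPM with NS and 901 to 1157 with MSC-EVs, and their part in the lower values of Pcp2 and Gng13 was not tested.

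The families of the members moved in both directions. Between WT and NS-treated rd10, 31.2% of all genes tested were higher and 30.1% lower. Of 25 listed paralogs, 22 were tested there, 12 were higher and 7 lower, with a median log2 fold change of 0.39. The glutamate receptors Grm5 (0.70) and Grm7 (0.70), the Go relative Gnai2 (0.78), Rgs6 (0.56) and Gpr158 (0.52), the nearest relative of Gpr179, were among the higher. They also included Grm4 (0.38), Trpm2 (0.39), Trpm3 (0.58), Trpm4 (0.55), Gnai1 (0.52) and Gnai3 (0.32). Lower were Gpsm2 (-1.67), Lrit2 (-1.59), Rgs9 (-1.13), Gnaz (-0.96), Gpsm1 (-0.81), Gpsm3 (-0.35) and Trpm7 (-0.34). Scaled to inner retinal genes, 5 were higher and 8 lower, and Gpr158 no longer passed. With MSC-EVs against NS none of 23 was called by edgeR (2 had an unadjusted p under 0.05, and DESeq2 called 1). Among bipolar cell markers, 4 of 10 were higher in NS-treated rd10, with Isl1 at 0.65, and 2 were lower, with Sebox at -0.46, and the median was 0.07. OFF bipolar cells lack mGluR6, and 5 of 8 of their markers were higher and none lower, with a median of 0.28, beside the 0.30 of the complex members. Scaled to inner retinal genes, 1 bipolar cell marker was higher and 5 were lower, and 1 OFF bipolar cell marker was higher. With MSC-EVs against NS edgeR called none of the 10 bipolar or 8 OFF bipolar cell markers, with medians of -0.18 and -0.06 (6 and 0 of them had an unadjusted p under 0.05, and DESeq2 called 2 and 0).

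**Figure D5:**
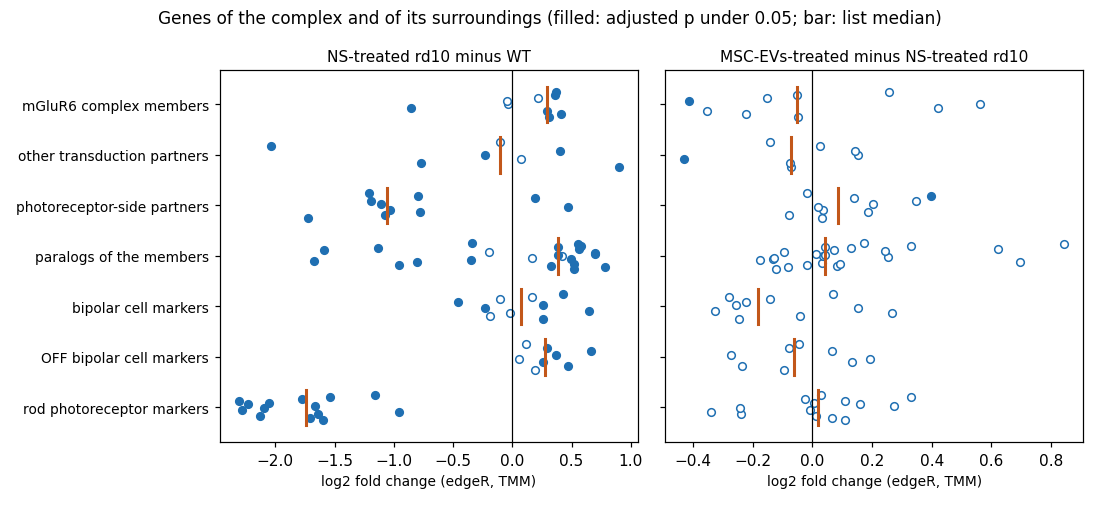
Log2 fold change (x axis) of single genes by list, for NS-treated rd10 minus WT and for MSC-EVs-treated minus NS-treated rd10, filled where the adjusted p was under 0.05, with a bar at the list median. Rod markers lie around -1.74 and photoreceptor-side partners around -1.06 in the first panel, while the complex members lie around 0.30, and the axes of the panels differ in range.

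Between WT and MSC-EVs-treated rd10 the 3 gene lists split in the same numbers on the TMM scale. Of 7 transduction partners 2 were higher and 3 lower, and of 10 photoreceptor-side partners 2 were higher and 8 lower. Of 23 paralogs 12 were higher and 7 lower. Over all genes tested 28.3% were higher and 27.2% lower. Scaled to inner retinal genes the numbers differed. There 2 partners were higher and 5 lower, against 1 and 4 between WT and NS-treated rd10. For the photoreceptor-side partners it was 1 and 8 against 0 and 8, and for the paralogs 7 and 8 against 5 and 8. On the TMM scale Gnb3 (0.83) and Rgs7bp (0.55) were the higher partners, and Rgs9bp (-2.01), Gnb5 (-0.85) and Gng13 (-0.36) the lower ones. Prkca, which was lower in NS-treated rd10, stood at -0.07 here (edgeR, adjusted p = 0.283). The photoreceptor-side falls reached from -0.40 for Lrit1 to -1.69 for Cabp4.

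The gene pattern most like that of Grm6 was sought over the 9 libraries, by the root mean square difference of centred log2(CPM + 1) values. The nearest outside the members were Lyplal1 (0.069), Vstm2b (0.081), Gm2897 (0.082), Nrn1l (0.087) and Inha (0.097), all but Vstm2b at under 10 CPM. The + 1 draws genes of low level together, most of all Gm2897 at under 1 CPM. Vstm2b, on the list of bipolar cell markers, stood at 41.9 to 50.2 CPM in WT, 47.5 to 54.7 in NS-treated and 36.3 to 46.0 in MSC-EVs-treated rd10. Within the complex Gpr179 was nearest to Grm6 (0.147), and Trpm1 (0.327), Nyx (0.421) and Lrit3 (0.532) were the farthest. On the TMM scale, Lrit3 was lower in both rd10 groups than in WT and Trpm1 was higher in both. On that scale Grm6 was higher than WT in NS-treated rd10 and not called in MSC-EVs-treated rd10. Scaled to inner retinal genes, neither Trpm1 (0.07) nor Grm6 (-0.01) was called between WT and NS-treated rd10. The difference between these patterns was not tested.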

How the data were processed

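The authors deposited 1 table with an estimated count and an FPKM value for each of 22337 genes in each of 9 libraries. Per the labels, total RNA was enriched for mRNA with oligo(dT) beads. The submitters' processing notes name fastp, Bowtie2, HISAT2, StringTie 1.3.1 and RSEM, with no roles. The genome build and strand setting are not given in the sources used here. The deposited estimated counts were not scaled and carry decimals for 9.16% to 11.7% of genes, so they were rounded. The deposited FPKM values were scaled by the authors to transcript length and depth.

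Pairs of groups (6 libraries each) were tested by a robust quasi-likelihood fit in edgeR 4.0.16 under R 4.3.3, after filterByExpr and TMM normalization, over all genes, with Benjamini-Hochberg adjustment. The biological coefficient of variation was 7.97% for WT and NS, 12.4% for NS and MSC-EVs and 10.8% for WT and MSC-EVs. Fold changes are the later-named group over the earlier one. CPM values used TMM factors over the 9 libraries. Alternatives used DESeq2 1.42.0 and limma 3.58.1, the latter on log2(FPKM + 1), which understates changes of low genes. The fits were tested on simulated data.

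The members were given by name, and the lists of partners, paralogs and cell type markers were written by hand. Members and lists were chosen with earlier results of these data known. All members, the called genes of each list and the 5 genes most like Grm6 were to be named, except for items that are not reported here. Of the table's identifiers, 22232 were in GENCODE M21, members included. The fit without both MSC-EVs libraries that hold Y-linked counts was chosen after seeing the data, and it leaves MSC-EVs replicate 3 alone in its group. No set test was run.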

Additional observations from a re-analysis of the deposited data

How the results depend on the processing

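Of the 9 members, 6 were called between WT and NS-treated rd10, 1 between the rd10 groups and 7 between WT and MSC-EVs-treated rd10. With a fold limit of 1 on the log2 scale the count was 0 in each. Scaling to amacrine, ganglion and horizontal cell genes gave 3 calls between WT and NS-treated rd10, and turned Grm6 to -0.00996 and Rgs11 to -0.074 there, Gnao1 to 0.044 and Rgs7 to 0.039 between the rd10 groups, and Gpr179 to -0.020 and Rgs11 to -0.13 between WT and MSC-EVs-treated rd10. limma on log2(FPKM + 1) put the median of all genes at 0.14, -0.01 and 0.12. It turned Nyx to 0.12 and Pcp2 to 0.13 between WT and NS-treated rd10, Trpm1 to -0.011 and Rgs7 to 0.0097 between the rd10 groups, and Grm6 to 0.082 between WT and MSC-EVs-treated rd10. Between the rd10 groups, DESeq2's Wald test called 3 members (6.3% of all genes), the fit of all 9 libraries 2 (6.88%), and the Y-linked covariate 0 (0.779%), where Gnao1 was 0.0098, against 1.16% of all genes as reported. Without both libraries that held Y-linked counts, Gnao1 was 0.0060 between the rd10 groups, and Grm6 was 0.21 and Rgs11 -0.0036 against WT. The cause was not tested in any of these cases.

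With single libraries left out, 6 to 7, 0 to 2 and 6 to 8 members were called in the 3 comparisons. Between the rd10 groups the count was 0 without NS replicate 2 or 3 or MSC-EVs replicate 1 or 3. Without NS replicate 3 or MSC-EVs replicate 1 edgeR called 0 of all genes, where 1991 and 2052 had an unadjusted p under 0.05. Nyx ranged from -0.15 to 0.066 between WT and NS-treated rd10, and against WT with MSC-EVs Grm6 ranged from -0.21 to 0.049 and Rgs11 from -0.036 to 0.14. All these were uncalled in the full fit.

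With the replicate number as a replicate block, 3 members were called between the rd10 groups, Grm6 (-0.36) and Nyx (0.56) besides Pcp2, and 403 of all genes instead of 172. It changed no call of a member in the other comparisons. The labels give numbers only. Deviations of same-numbered libraries correlated at 0.09, 0.21 and 0.28 between the rd10 groups, and those of differently numbered libraries at -0.23 to -0.01. In the comparisons with WT same-numbered libraries correlated at -0.08 to 0.09. The paper states that rd10 littermates received MSC-EVs or saline, but not that equal numbers share a litter. Whether the numbers of the rd10 groups are pairs is thus not settled here, and the main fits did not use them.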
